A study of Mus musculus with 30 samples.

Results

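The proteasome genes of the mouse heart were followed through 30 libraries of poly(A) RNA. They were taken as the protein-coding genes whose symbol starts with Psma, Psmb, Psmc, Psmd, Psme, Psmf or Psmg, without symbols marked as pseudogenes, which gave 50 genes of the 55487 in the count table. A floxed cohort had 4 groups of 4 hearts: mice labelled CPT1a floxed after sham surgery (FF_sham) or transverse aortic constriction (FF_TAC), and mice labelled as cardiac-specific CPT1a knockouts after sham (KO_sham) or constriction (KO_TAC). Constriction (TAC) clips the aorta, so that the left ventricle pumps against a higher pressure. The AAV9 cohort held C57Bl/6 mice that received PBS before sham (PBS_sham, n = 3) or TAC (PBS_TAC, n = 3), or the vector AAV9.Cpt1a before sham (AAV_sham, n = 4) or TAC (AAV_TAC, n = 4). All hearts were collected 8 weeks after surgery. Cpt1a encodes the enzyme that passes long-chain fatty acids into mitochondria, and the series description gives the role of its upregulation under pathological stress as the question. The labels do not name the Cre driver of the knockout, the ages of the mice or which of the 2 clip sizes each mouse received. The promoter in the vector's name is written cTNTN in the series description. No label says whether the hearts of a group came from separate litters or surgery days, so p-values measure the spread between these libraries.

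The proteasome degrades proteins that carry ubiquitin. Its core is a barrel of alpha rings, which gate the entrance, around beta rings, which hold the cutting sites. A regulatory cap binds ubiquitin chains, removes them and unfolds the substrate with a ring of ATPases. Interferon signalling can replace the 3 cutting beta subunits with immunoproteasome subunits, which favour peptides for display on MHC class I. In heart muscle the ubiquitin and proteasome system clears damaged and surplus contractile proteins.

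The 50 genes comprised 7 constitutive alpha subunits, 7 constitutive beta subunits, 6 cap ATPases and 11 other cap subunits, together 31 core and cap genes. The others were the 3 immunoproteasome subunits Psmb8, Psmb9 and Psmb10, the germline alpha subunit Psma8, the thymus subunit Psmb11, 7 assembly chaperones (Psmd5, Psmd9, Psmd10 and Psmg1 to Psmg4), the PA28 activator genes Psme1, Psme2 and Psme2b, the other activators Psme3 and Psme4, the inhibitor gene Psmf1, and Psmc3ip, which carries the prefix but encodes no subunit. Psmb11 held 3 counts in all 30 libraries together and did not pass the filter on low counts. The other 49 passed it in both cohorts. Exons of 12 of the 50 genes overlap exons of a gene on the opposite strand, and 4 overlap a gene on their own strand. Because the strand setting of the counting is not stated, values of those genes are uncertain. They include Psmb8, Psmb9 (with Tap1), Psmd1 (with Htr2b), Psmb7, Psmc3 (with Slc39a13), Psma5, Psmd3, Psmd13 (with Sirt3) and, over 14 bases, Psme1. Psmb5 is among those that overlap a gene on their own strand, over 109 bases with Mir686.

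Some libraries stood apart before any comparison. Library totals ran from 14839758 to 22070373 counts. Levels are given as CPM, counts scaled to library size with TMM factors within a cohort. Summed haemoglobin transcripts were under 100 CPM in 7 libraries: the whole KO_TAC group, FF_TAC 2, FF_TAC 3 and KO_sham 2. Their mean log2 CPM of 12 early response genes ran from 6.82 to 8.33, against 3.09 to 3.72 in the other 9 libraries of the floxed cohort. Cpt1a ran from 37.8 to 52.6 CPM in FF_sham and from 11.1 to 19.6 CPM in KO_TAC, but the library labelled KO_sham 2 had 46.2 CPM, against 20.3 to 23.6 in the other KO_sham libraries. Cpt1a was also low in 2 libraries with floxed labels, 20.3 CPM in FF_TAC 2 and 16.2 CPM in FF_TAC 3. Directions drawn from KO_sham or FF_TAC rest on those labels. KO_TAC 1 had 3143 CPM of the atrial gene Myl7, against at most 1105 CPM in the other floxed libraries. In PBS_sham 3 the summed markers of cardiomyocytes were 22269 CPM, against at least 44942 CPM in the rest of the AAV9 cohort.

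In sham-operated floxed hearts the constitutive subunits were far above the immunoproteasome subunits Psmb8 and Psmb9. Per kb of exon, the proteasome gene with the highest mean in FF_sham was the cap ATPase gene Psmc3, at 85.9 ± 10.4 CPM per kb (SD, n = 4). Next came the alpha subunit Psma6 at 78.7 ± 4.32 and the ATPase Psmc1 at 77.6 ± 7.66 CPM per kb (SD, n = 4 each). The spreads of Psmc3, Psma6 and Psmc1 overlap, so their order is not settled. The lowest of the 31 core and cap genes was Psmd11, a cap scaffold subunit, at 12.4 ± 0.578 CPM per kb (SD, n = 4). The exon length counts the exons of all annotated transcripts, 6383 bases for Psmd11, and the order depends on it. Not divided by length, Psmd11 had 76.7 to 84.6 CPM in FF_sham, above Psmd14 at 37.3 to 42.5 CPM. On that scale Psmc3 had 191 to 257 CPM and the activator gene Psme4 219 to 280 CPM.

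The 3 cutting subunits each have an immunoproteasome counterpart. Psmb8, which replaces Psmb5, stood at 4.85 ± 0.765 CPM per kb in FF_sham, against 73.0 ± 8.56 for Psmb5 (SD, n = 4 each). Psmb9, which replaces Psmb6, stood at 2.63 ± 0.59 CPM per kb, against 56.8 ± 6.64 for Psmb6 (SD, n = 4 each). With exon lengths of 3660 and 1872 bases, their undivided levels were 6.77 to 11.9 CPM and 93.5 to 123 CPM. Psmb10, which replaces Psmb7, was the exception at 25.9 ± 4.98 CPM per kb, beside 25.8 ± 2.24 for Psmb7 (SD, n = 4 each). That likeness rests on exon lengths of 1705 bases for Psmb10 and 3421 bases for Psmb7. In CPM, not divided by length, FF_sham ran from 34.4 to 52.0 for Psmb10 and from 82.2 to 99.4 for Psmb7. In bulk tissue, more cells that express a gene and more of its RNA per cell cannot be told apart.

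**Figure D1:**
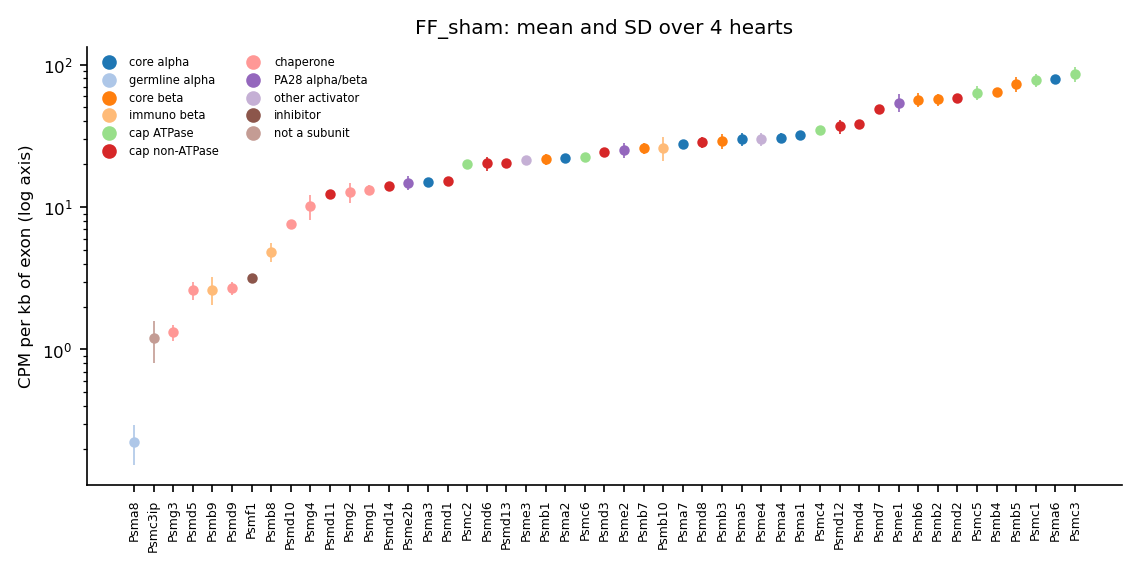
Levels of the proteasome genes in FF_sham as CPM per kb of exon on a log axis, with points as means and bars as SD over 4 hearts, coloured by role. Psmc3 is highest at 85.9 CPM per kb, and the immunoproteasome subunits Psmb8 and Psmb9 lie at 4.85 and 2.63, below each of the core and cap genes.

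In the knockout hearts after TAC compared with knockout sham hearts, 16 of the 49 proteasome genes tested rose, 1 fell and 32 did not pass the test. All 31 core and cap genes had positive log2 fold changes, with a median of 0.48 against 0.02 for all genes tested, and 14 of them were called higher. The 16 that rose were 32.7% of the members, where 14.3% of the 15596 genes tested were called higher, and the 1 that fell was 2.04%, where 11.5% were called lower. After dropping genes that averaged under 5 CPM, 15 of 46 members (32.6%) and 32.8% of all genes were called in either direction. In that fit 14 members and 1683 of 10518 genes were called higher. With a term for the haemoglobin-low libraries no member was called, and 1.75% of all genes were. Without KO_TAC 2 the core and cap median was 0.28, with 2 of 31 called, against 16.7% of all genes. Without KO_TAC 1 that median was 0.63, with 30 of 31 called, against 40.8% of all genes. Calls come from the quasi-likelihood test of edgeR, with p-values adjusted over all genes tested by the Benjamini-Hochberg method and a threshold of 0.05. At an unadjusted p under 0.05 there were 28 members (57.1%), against 40.6% of all genes. By DESeq2, 20 members were called higher and 1 lower, and 30.9% of all genes were called. Groups that did not overlap were few: all KO_TAC libraries lay above all KO_sham libraries for 2 members, Psmd11 and Psmd14, against 11.1% of genes, and below them for 1 member, Psme1, against 12.0% of genes.

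Among the alpha subunits, which form the gate of the core, Psma3 and Psma5 rose and the other 5 of 7 did not pass the test. Their log2 fold changes ran from 0.26 for Psma1 to 0.67 for Psma5. Among the constitutive beta subunits, Psmb1, Psmb4 and Psmb5 rose and 4 of 7 did not pass, in a range of 0.27 to 0.63. Psmb5, the subunit with chymotrypsin-like activity, had 71.3, 55.3, 69.3 and 59.3 CPM in KO_sham 1 to 4 and 57.6, 140, 111 and 81.9 CPM in KO_TAC 1 to 4. KO_TAC 1 lay among the sham libraries and the other 3 above them. The log2 fold change was 0.61 (SE 0.22, adjusted p = 0.0473 by edgeR's quasi-likelihood test). Psmb5 stayed called in 2 of the 8 fits without 1 library, with an adjusted p of up to 0.178.

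Psmb6, the subunit with caspase-like activity, had 111, 89.4, 107 and 94.4 CPM in KO_sham and 88.5, 205, 160 and 109 CPM in KO_TAC. Its log2 fold change of 0.48 (SE 0.21) did not pass (adjusted p = 0.0940 by edgeR). Psmb7, the subunit with trypsin-like activity, had 92.0, 75.0, 88.5 and 73.0 CPM in KO_sham and 66.6, 138, 119 and 100 CPM in KO_TAC. The groups overlapped through KO_TAC 1 for both genes, and for Psmb6 through KO_TAC 4 as well. The fold change of Psmb7 was 0.37 on the log2 scale (SE 0.19, adjusted p = 0.162 by edgeR).

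Of the immunoproteasome subunits, Psmb10 rose, and Psmb8 and Psmb9 did not pass the test. Psmb10 (chr8:105935735-105938444 on GRCm38) had 52.6, 28.5, 47.3 and 51.6 CPM in KO_sham and 36.7, 118, 109 and 73.3 CPM in KO_TAC. KO_TAC 1 lay inside the sham range and the other 3 above it. Psmb10 had the largest log2 fold change of the called members, 0.90 (SE 0.30, adjusted p = 0.0362 by edgeR), and stayed called in 2 of the 8 fits without 1 library (adjusted p up to 0.120). Psmb8 (chr17:34197721-34201454) had 16.8, 14.8, 15.8 and 14.2 CPM in KO_sham and 13.1, 14.8, 19.9 and 16.7 CPM in KO_TAC. Psmb9 (chr17:34181987-34187764) had 10.3, 8.86, 8.94 and 8.56 CPM in KO_sham and 7.62, 6.00, 9.78 and 8.50 CPM in KO_TAC. Both pairs of groups overlapped. Their log2 fold changes were 0.07 for Psmb8 (SE 0.16, adjusted p = 0.784 by edgeR) and −0.20 for Psmb9 (SE 0.23, adjusted p = 0.543 by edgeR). The difference in response between Psmb10 and the other two was not tested.

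Set against its counterpart per kb, Psmb8 was 6.25%, 7.09%, 6.08% and 6.39% of Psmb5 in KO_sham 1 to 4 and 6.04%, 2.82%, 4.75% and 5.42% in KO_TAC 1 to 4. Psmb9 was 4.72%, 5.07%, 4.27% and 4.64% of Psmb6 in KO_sham and 4.41%, 1.497%, 3.12% and 4.01% in KO_TAC. Psmb10 was 115%, 76.4%, 107% and 142% of Psmb7 in KO_sham and 111%, 172%, 183% and 147% in KO_TAC. The first ratio was lower in every KO_TAC library than in any KO_sham library, and the ratios of Psmb9 and Psmb10 overlapped through KO_TAC 1. These ratios are given as values, with no test, and their size depends on the exon lengths used.

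**Figure D2:**
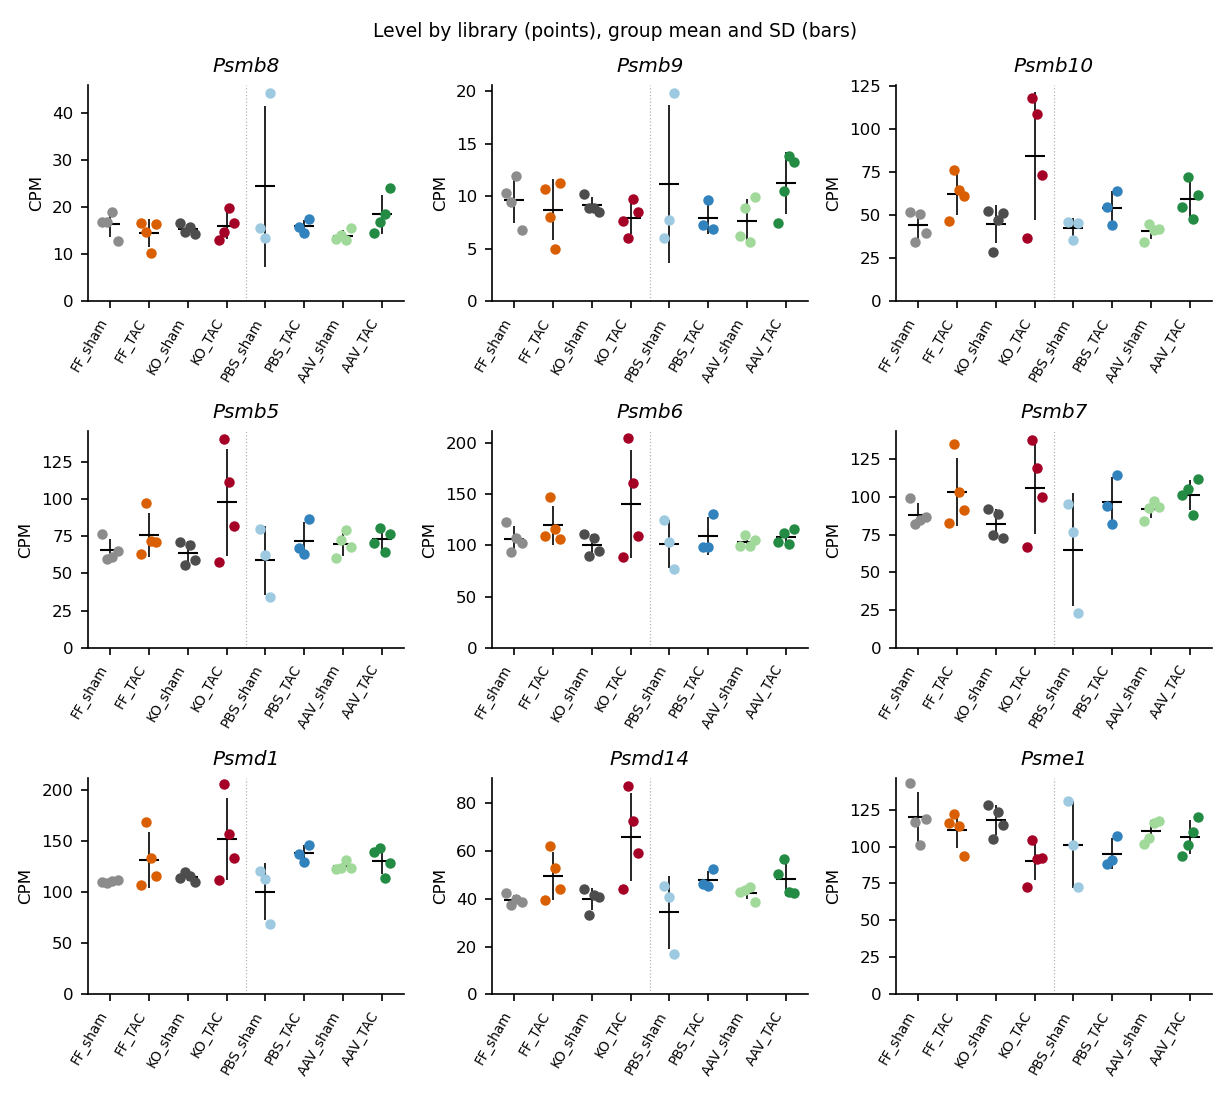
CPM by group for Psmb8, Psmb9 and Psmb10, their counterparts Psmb5, Psmb6 and Psmb7, and Psmd1, Psmd14 and Psme1, with 1 point per library and bars for the group mean and SD (n = 4, or 3 in PBS_sham and PBS_TAC). The dotted line parts the cohorts, which were scaled separately. KO_TAC spreads widely for the constitutive genes, from 57.6 to 140 CPM for Psmb5, and PBS_sham 3 is highest for Psmb8 at 44.3 CPM.

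The cap held the largest share of called genes. Of its 6 ATPases, which unfold substrates, Psmc1 and Psmc4 rose, with all 6 between 0.31 and 0.66 on the log2 scale. Of its 11 other subunits, 7 rose: Psmd3, Psmd4, Psmd7, Psmd8, Psmd11, Psmd13 and Psmd14, with the class in a range of 0.13 to 0.81. Psmd4 encodes a ubiquitin receptor of the cap. Psmd8 had 88.8, 71.9, 83.0 and 79.7 CPM in KO_sham and 80.8, 186, 169 and 133 CPM in KO_TAC. KO_TAC 1 again lay inside the sham range. Its log2 fold change was 0.81 (SE 0.22, adjusted p = 0.0168 by edgeR's quasi-likelihood test), and it stayed called in 6 of the 8 fits without 1 library.

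Psmd1, the large scaffold subunit at the base of the cap, did not pass the test. Psmd1 (chr1:86064387-86139151) had 114, 120, 116 and 110 CPM in KO_sham and 112, 206, 157 and 134 CPM in KO_TAC. KO_TAC 1 overlapped the sham hearts. Its log2 fold change was 0.40 (SE 0.16, adjusted p = 0.0763 by edgeR). The other large scaffold, Psmd2, had the smallest change of the core and cap genes, 0.13 (SE 0.10, adjusted p = 0.363 by edgeR).

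Psmd11 and Psmd14 are singled out after their values were seen, as the members whose groups did not overlap upward. Psmd14, the enzyme that cuts ubiquitin chains off the substrate, had 44.1, 33.4, 41.7 and 40.9 CPM in KO_sham and 44.2, 87.3, 72.5 and 59.2 CPM in KO_TAC. Psmd11 had 72.5, 73.9, 72.3 and 64.3 CPM in KO_sham and 76.6, 126, 112 and 103 CPM in KO_TAC. In both, KO_TAC 1 stood only just above the highest sham heart. The log2 fold changes were 0.72 for Psmd14 (SE 0.18, adjusted p = 0.0124) and 0.56 for Psmd11 (SE 0.13, adjusted p = 0.00991), both by edgeR's quasi-likelihood test. Both stayed called whichever of the 8 libraries was left out, and in 14 of all 15 alternatives, unlike the other 15 called members, which stayed called in 2 to 6 of the 8. The exception was the term for haemoglobin-low libraries, where Psmd14 had 0.61 and Psmd11 0.39 (adjusted p = 0.199 and 0.206 by edgeR).

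The stretches upstream of the start of these genes and of Psmb5 and Psmd4 are shown because core and cap genes moved together. They come from RefSeq promoters on GRCm38.p6 (Psmd14 chr2:61711444-61711693, plus strand; Psmd11 chr11:80428365-80428614, plus strand; Psmb5 chr14:54618023-54618245, minus strand; Psmd4 chr3:95042615-95042864, minus strand). They are written 5′ to 3′ along the gene and hold no annotated exon. Capitals mark matches to any of 4 motifs.
Psmd14: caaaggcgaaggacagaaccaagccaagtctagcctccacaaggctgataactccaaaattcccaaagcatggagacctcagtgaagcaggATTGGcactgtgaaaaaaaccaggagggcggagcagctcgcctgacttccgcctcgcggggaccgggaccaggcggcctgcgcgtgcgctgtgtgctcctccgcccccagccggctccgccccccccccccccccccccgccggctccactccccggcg
Psmd11: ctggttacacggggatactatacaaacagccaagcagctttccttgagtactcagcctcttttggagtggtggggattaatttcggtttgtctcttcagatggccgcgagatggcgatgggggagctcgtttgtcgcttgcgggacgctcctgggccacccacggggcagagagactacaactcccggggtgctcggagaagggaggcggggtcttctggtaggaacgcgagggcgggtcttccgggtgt
Psmb5: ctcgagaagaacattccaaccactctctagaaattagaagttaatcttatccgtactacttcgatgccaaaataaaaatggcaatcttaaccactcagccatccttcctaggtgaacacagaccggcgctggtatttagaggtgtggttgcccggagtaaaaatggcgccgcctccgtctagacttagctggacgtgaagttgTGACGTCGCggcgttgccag
Psmd4: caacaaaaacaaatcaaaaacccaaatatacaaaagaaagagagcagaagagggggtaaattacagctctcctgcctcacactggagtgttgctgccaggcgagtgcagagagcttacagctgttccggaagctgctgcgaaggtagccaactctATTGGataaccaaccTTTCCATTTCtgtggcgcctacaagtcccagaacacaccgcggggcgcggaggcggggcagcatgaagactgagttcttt

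The 250 bases upstream of the start were searched on both strands in the 42 members of 50 with a RefSeq promoter and in all 27025 genes of that table. The motifs were picked after the fold changes were known. The core of the antioxidant response element, TGACNNNGC, which resembles the site read by the factor made by Nfe2l1, was in 11.9% of members and 11.5% of all promoters. The CCAAT box, read by NF-Y, was in 35.7% of members and 37.5% of all. The core of the interferon-stimulated response element was in 7.14% against 3.46%, which is 3 of 42 members, and the gamma-activated site core TTCNNNGAA was in 4.76% against 8.13%, or 2 of 42. In the 13 members called higher that had a promoter, these shares were 7.69%, 30.8%, 7.69% and 0.0%. In Psmd14 the capitals are a CCAAT box on the other strand, in Psmb5 the antioxidant element core, and in Psmd4 a CCAAT box and an interferon element core, both on the other strand, while Psmd11 held none of the 4.

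The antioxidant element core was found in 4 of 25 core and cap genes (16.0%), shown with the match in capitals and up to 8 bases on each side: Psmb5 (chr14:54618026-54618050, minus strand), Psmb6 (chr11:70525340-70525356, plus strand), Psmc6 (chr14:45329589-45329613, plus strand) and Psmd12 (chr11:107479278-107479297, plus strand). Of these genes only Psmb5 was called in KO_TAC against KO_sham.
Psmb5: tgaagttgTGACGTCGCggcgttgc
Psmb6: aaagagagTGACGGAGC
Psmc6: agccagtaGCTAAGTCAggcattgc
Psmd12: tctGCTGTGTCAcatttgcc

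Of the 7 chaperones, which assemble the core and cap, only Psmg4 rose. It had 5.25, 5.40, 5.25 and 5.22 CPM in KO_sham and 5.02, 14.3, 11.3 and 7.20 CPM in KO_TAC. KO_TAC 1 was below the sham hearts and the other 3 above them. Its log2 fold change was 0.84 (SE 0.28, adjusted p = 0.0413 by edgeR), in a class that ran from −0.10 for Psmd5 to 0.84. The call held in 2 of the 8 fits without 1 library (adjusted p up to 0.152).

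The activator gene Psme1 was the single member that fell. Its product forms the PA28 ring with that of Psme2. Psme1 (chr14:55578123-55581529) had 128, 105, 123 and 115 CPM in KO_sham and 72.9, 104, 91.9 and 92.0 CPM in KO_TAC. All KO_TAC libraries were below all KO_sham libraries, with KO_TAC 2 just under KO_sham 2. The log2 fold change was −0.38 (SE 0.13, adjusted p = 0.0412 by edgeR), and the call held in 2 of the 8 fits without 1 library (adjusted p up to 0.0984). Psme2 had 53.3, 38.4, 49.6 and 41.6 CPM in KO_sham and 38.3, 70.3, 74.4 and 54.6 CPM in KO_TAC. Its groups overlapped through KO_TAC 1, and its log2 fold change of 0.38 (SE 0.19) did not pass (adjusted p = 0.146 by edgeR). Psme2b is a near copy of Psme2, so reads could be split between them. The activators Psme3 and Psme4 and the inhibitor Psmf1 ran from −0.06 to 0.16 on the log2 scale, and none passed the test.

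**Figure D3:**
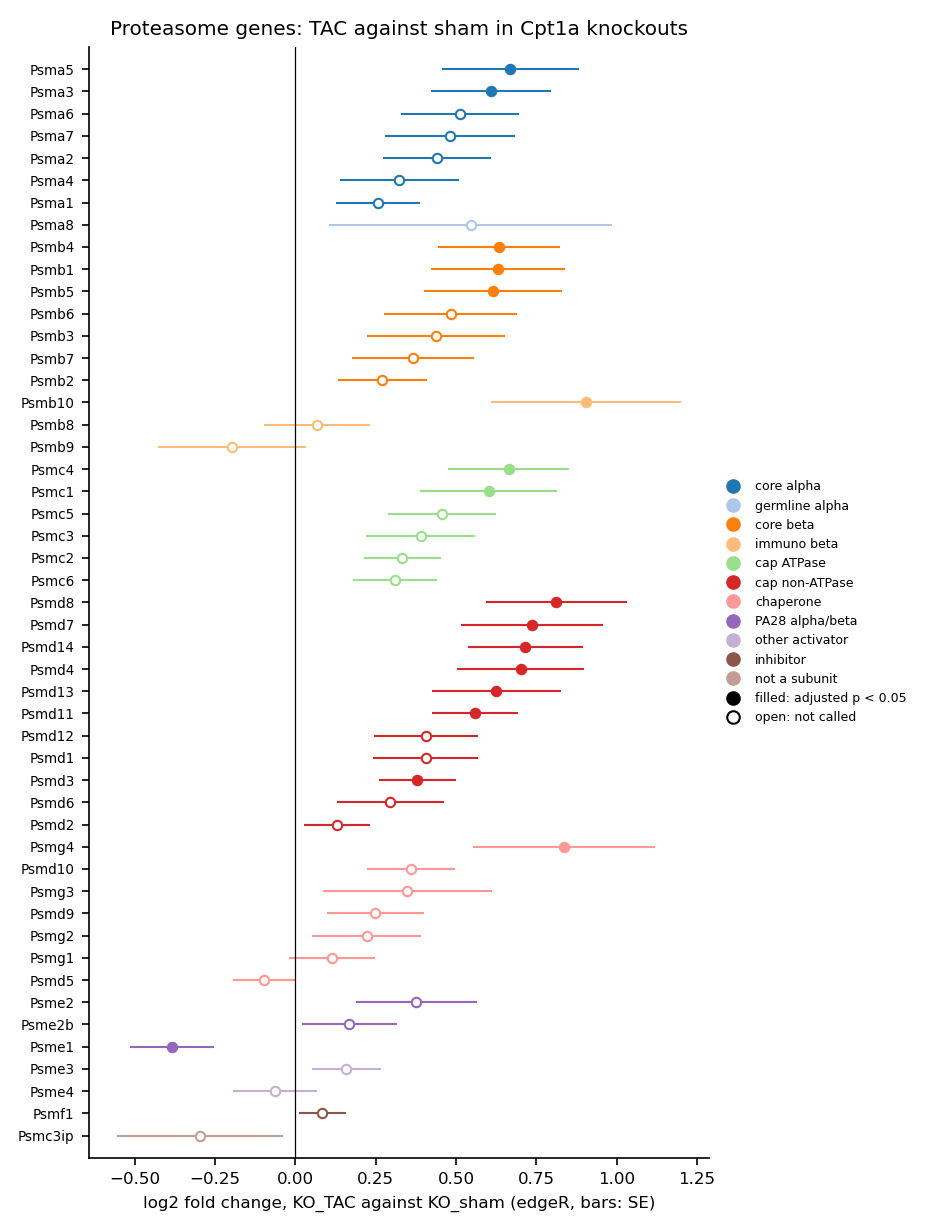
Log2 fold changes of the 49 members tested in KO_TAC against KO_sham from edgeR, with bars for the standard error, ordered by role. Filled points passed the test. The core and cap genes lie to the right of 0, from 0.13 to 0.81, Psmb8 and Psmb9 lie near 0, and Psme1 at −0.38 is the only filled point on the left.

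The rise was uneven over the KO_TAC hearts. Against the KO_sham mean, the median log2 difference over the 31 core and cap genes was −0.05 in KO_TAC 1, 0.95 in KO_TAC 2, 0.66 in KO_TAC 3 and 0.29 in KO_TAC 4. KO_TAC 2 was the highest library of the floxed cohort for 30 of the 31 genes, and KO_TAC 1 the lowest for 10. KO_TAC 1 is also the library with the high Myl7 level, and the part of atrial tissue in this value was not tested. The number of members called moved with single libraries, and so did its place beside the share of all genes. With all libraries, 34.7% of members and 25.8% of all genes were called. Without KO_TAC 1, 35 members were called (71.4%, against 40.8% of all genes), and without KO_TAC 4, 16 (32.7% against 24.5%). Without KO_TAC 2 the count was 3 (6.12% against 16.7%), and without KO_TAC 3 it was 2 (4.08% against 12.3%). Without KO_sham 1 it was 9 (18.4% against 17.9%), without KO_sham 2 it was 7 (14.3% against 20.0%), without KO_sham 3 it was 5 (10.2% against 16.0%) and without KO_sham 4 it was 3 (6.12% against 16.0%). In 5 of these 8 fits the share of members was below that of all genes. With only the 2 groups compared in the fit, 3 of 48 members were called (6.25% against 15.5%).

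The rise also lay in part along the division by haemoglobin transcripts. In the floxed controls, the 2 haemoglobin-low libraries FF_TAC 2 and 3 had median differences of 0.55 and 0.23 from the FF_sham mean over the core and cap genes, and FF_TAC 1 and 4 had −0.05 and 0.05. The library labelled KO_sham 2, also haemoglobin-low, had −0.10. KO_TAC 1, haemoglobin-low as well, had −0.05 from the KO_sham mean. With a term for haemoglobin-low libraries, no member was called in KO_TAC against KO_sham by edgeR (273 of all genes, 1.75%, were called, and 4 members had an unadjusted p under 0.05), and the core and cap genes had a median of 0.37, 30 of 31 positive. Only 1 KO_sham library is haemoglobin-low and no KO_TAC library is haemoglobin-high, so within the knockouts a comparison of surgeries among haemoglobin-low hearts rests on KO_sham 2 alone.

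Marker levels moved between the same groups. Summed fibroblast markers were 670 to 956 CPM in KO_sham and 1265 to 1449 CPM in KO_TAC, and summed endothelial markers 661 to 888 and 486 to 677 CPM. Mitochondrial transcripts were 12.1% to 18.7% of counts in KO_TAC and 20.9% to 26.0% in the other floxed libraries. Summed leukocyte markers were 227 to 507 CPM in KO_sham and 288 to 348 CPM in KO_TAC. Of the 15 leukocyte genes, 11 were tested and none was called by edgeR, and Cd3e, Cd3d, Nkg7, S100a8 and S100a9 averaged under 1 CPM. Of the endothelial genes, 4 of 6 fell, and of the fibroblast genes, 2 of 5 rose. Summed cardiomyocyte markers were 43678 to 50285 CPM in KO_sham and 39232 to 54401 CPM in KO_TAC, and of these 6 genes Actn2 rose and Myh6 and Ryr2 fell. The part of these cell types in the proteasome values was not tested.

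**Figure D4:**
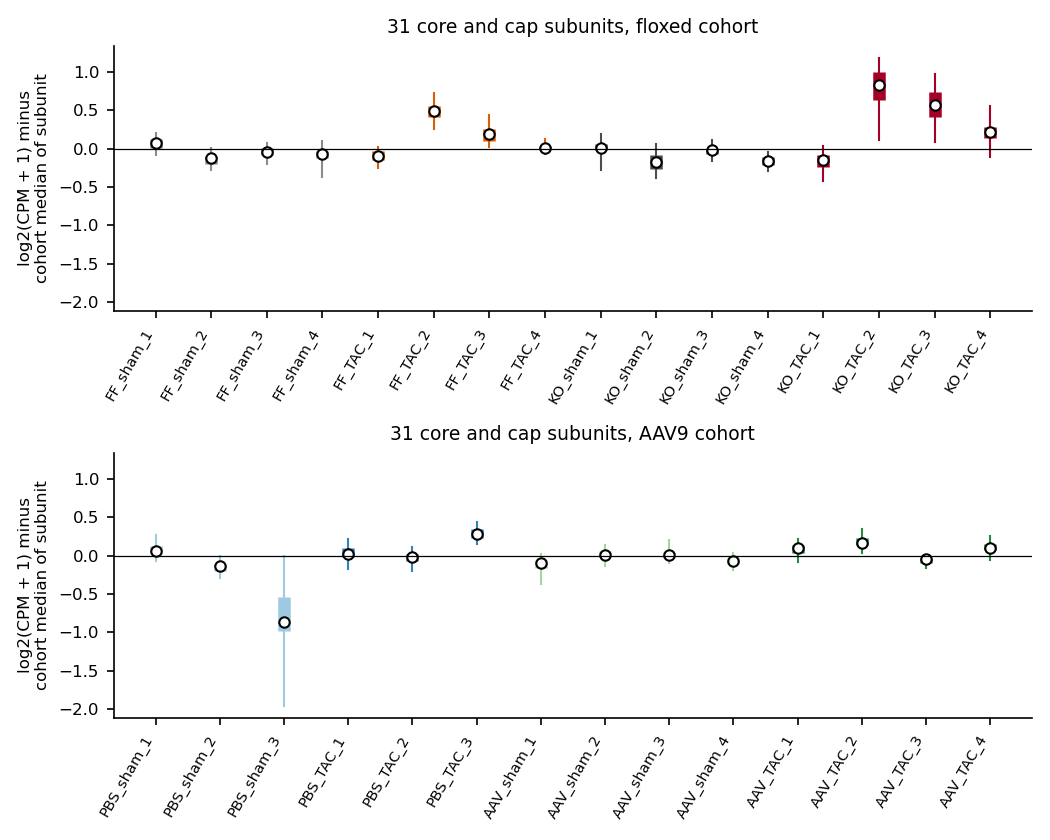
For each library, log2(CPM + 1) of the 31 core and cap genes minus the median of the same gene over the cohort: circles are medians, thick bars the middle 50% and thin lines the full range. KO_TAC 2 and 3 stand highest among the floxed libraries with FF_TAC 2, KO_TAC 1 lies with the sham hearts, and PBS_sham 3 lies far below the rest of the AAV9 cohort.

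Genes around the proteasome were read from lists. Of 6 regulators of proteasome genes, 3 rose in KO_TAC against KO_sham: Nfe2l1, the factor that induces subunits when the proteasome is impaired (log2 fold change 0.30, SE 0.11), Nfe2l2 (0.54, SE 0.15) and Nfyb (0.57, SE 0.15). Among genes for ubiquitin and its activation, the polyubiquitin gene Ubb (0.54, SE 0.14) rose, as did Rps27a (1.24, SE 0.29), whose reads could be shared with pseudogenes. Of 11 shuttle and unfoldase genes, Sqstm1 (1.10, SE 0.24), which carries ubiquitinated cargo, Nsfl1c (0.42, SE 0.14) and Ufd1 (0.27, SE 0.09) rose. Of 9 proteasome partners, the cap ubiquitin receptor gene Adrm1 rose (0.50, SE 0.14). None of 6 muscle ubiquitin ligase genes, Trim63 and Fbxo32 among them, was called by edgeR. Adjusted p-values of the genes named here as risen ran from 0.00620 for Sqstm1 to 0.0479 for Nfe2l1 by edgeR's quasi-likelihood test.

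Of 8 genes for peptide loading and MHC class I, B2m (0.47, SE 0.16), Calr (0.49, SE 0.12), Pdia3 (0.31, SE 0.10) and Tap2 (0.39, SE 0.12) rose and the peptide trimmer Erap1 fell by 0.45 on the log2 scale (SE 0.15). Of 10 interferon signalling genes, Irf1 (2.67, SE 0.67), Jak2 (1.25, SE 0.28) and Ifngr1 (0.71, SE 0.17) rose. Irf1 averaged 305 ± 93.9 CPM (SD, n = 4) in KO_TAC against 48.0 ± 41.0 CPM (SD, n = 4) in KO_sham. With 25.8% of all genes called in this comparison, 18 of the 56 genes of these 7 lists were called, 17 of them higher. The list genes were not refitted with the haemoglobin term, under which 1.75% of all genes were called, or without single libraries.

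In the floxed controls, TAC gave no called proteasome gene. By edgeR 0 of 49 members were called in FF_TAC against FF_sham, as were 0.0% of all genes, and 1 member (2.04%) had an unadjusted p under 0.05, against 11.1% of all genes. DESeq2 called 0 members and 1.12% of all genes, with 1 member left without an adjusted p. The FF_TAC libraries were all above FF_sham for 0 members (2.74% of genes) and all below for 1, the inhibitor gene Psmf1 (3.30% of genes). All 31 core and cap genes had positive values, with a median of 0.22 (all genes −0.01), which was 0.077 without FF_TAC 2. Psmb10 had 52.0, 34.4, 50.6 and 39.9 CPM in FF_sham and 46.9, 76.5, 64.6 and 61.2 CPM in FF_TAC, a log2 fold change of 0.49 (SE 0.29, adjusted p = 0.535 by edgeR). FF_TAC 1 lay inside the sham range and the other 3 above it. Psmd1 ran from 109 to 112 CPM in FF_sham and had 107, 169, 134 and 116 CPM in FF_TAC (0.25, SE 0.16, adjusted p = 0.559 by edgeR). Psmb8 and Psmb9 had log2 fold changes of −0.17 (SE 0.16, adjusted p = 0.685) and −0.14 (SE 0.23, adjusted p = 0.823 by edgeR). Among haemoglobin-high libraries alone, the core and cap median was 0.01.

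Whether TAC acted differently in knockouts was tested by the interaction. By edgeR 0 of 49 members were called (0.0449% of all genes were), 1 had an unadjusted p under 0.05 (13.1% of all genes did), and DESeq2 called 0 (2.42% of all genes). The core and cap median was 0.29, 31 of 31 positive, and was 0.10 with 25 of 31 positive without KO_TAC 2 and 0.43 without KO_TAC 1. A larger effect of TAC in the knockouts than in the floxed controls was therefore not shown for any single proteasome gene. The values were 0.41 for Psmb10 (SE 0.42), 0.24 for Psmb8 (SE 0.23), −0.06 for Psmb9 (SE 0.33) and 0.16 for Psmd1 (SE 0.23).

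The knockout itself was compared within each surgery. In sham hearts, 0 of 49 members were called by edgeR (0.0% of all genes), 0 had an unadjusted p under 0.05 (5.22% of all genes did) and DESeq2 called 0 (0.0962% of all genes), with 13 members left without an adjusted p. All KO_sham libraries were above FF_sham for 0 members (3.23% of genes) and below for Psmd3, Psmd11 and Psmf1 (3 members, against 3.55% of genes). The core and cap median was −0.03. Psmb8, Psmb9, Psmb10 and Psmd1 had values of −0.09, −0.07, 0.03 and 0.06 (SE 0.16, 0.23, 0.29 and 0.16). After TAC, 0 members were called by edgeR although 14.3% of all genes were, and 6 of 49 (12.2%) had an unadjusted p under 0.05, against 31.1% of all genes. Groups were apart for 0 members in either direction (6.76% of genes each way). DESeq2 called 19.6% of all genes and 1 member, the chaperone gene Psmd10, named here after its value was seen. Without KO_TAC 1, 13 members were called by edgeR (26.5%, against 24.3% of all genes), and without FF_TAC 2, 1 member (2.04% against 17.5%). The core and cap median was 0.23, and was 0.094 without KO_TAC 2, 0.37 without KO_TAC 1 and 0.055 among haemoglobin-low libraries alone. Psmb8, Psmb9, Psmb10 and Psmd1 had values of 0.15, −0.13, 0.43 and 0.21 (SE 0.16, 0.23, 0.29 and 0.16). The same KO_TAC libraries serve in the comparison with KO_sham and in the interaction, so these values are not independent of those.

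In the AAV9 cohort the comparisons with PBS_sham turned on 1 library. PBS_sham 3 was the lowest of the cohort for 29 of the 31 core and cap genes and the highest for Psmb8 and Psmb9. Psmb8 had 15.7, 13.5 and 44.3 CPM in PBS_sham, 15.7, 14.6 and 17.5 CPM in PBS_TAC, 13.2, 14.1, 13.0 and 15.6 CPM in AAV_sham and 14.5, 16.8, 18.6 and 24.2 CPM in AAV_TAC. Psmb9 had 6.02, 7.75 and 19.9 CPM in PBS_sham and 5.67 to 13.9 CPM over the other groups of the cohort. Psmb7 had 95.2, 76.8 and 23.3 CPM in PBS_sham, and Psmb5 79.5, 62.5 and 34.0 CPM. Outside PBS_sham 3, groups of this cohort overlapped for Psmb8. Per kb, Psmb8 was 34.7% of Psmb5 in PBS_sham 3 and 2.82% to 8.40% in the other 29 libraries of both cohorts.

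In that library summed endothelial markers were 1315 CPM, the highest of all 30, and summed leukocyte markers were 183 CPM, the lowest of the AAV9 cohort. The part of either cell type in its Psmb8 level was not tested.

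With that library, the core and cap genes had a median log2 fold change of 0.36 in PBS_TAC against PBS_sham, 31 of 31 positive, and without it 0.15, 29 of 31 positive. By edgeR 0 of 49 members were called (0.0318% of all genes), 12 (24.5%) had an unadjusted p under 0.05 against 18.5% of all genes, and DESeq2 called 0 (2.35% of all genes). Leaving out PBS_sham 1, which leaves PBS_sham 3 as 1 of 2 libraries, gave 6 called members (12.2%, against 11.1% of all genes) and a core and cap median of 0.56. All PBS_TAC libraries lay above all PBS_sham libraries for 7 members, against 8.11% of genes, and below for 0 members, against 6.57%. Psmd1 was among them, with 121, 113 and 68.6 CPM in PBS_sham and 138, 130 and 147 CPM in PBS_TAC (0.45, SE 0.18, adjusted p = 0.216 by edgeR; 0.24 without PBS_sham 3). Psmb8 had −0.62 (SE 0.34, adjusted p = 0.329 by edgeR) and 0.13 without PBS_sham 3, Psmb9 −0.51 (SE 0.38) and 0.20 without it, and Psmb10 0.36 (SE 0.17, adjusted p = 0.283 by edgeR).

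After vector, TAC against sham gave 0 called members of 49 by edgeR (0.00635% of all genes) and 0 by DESeq2 (0.743%), with 2 at an unadjusted p under 0.05 (7.05% of all genes). The core and cap median was 0.12, 30 of 31 positive. All 3 immunoproteasome subunits had positive values: Psmb8 0.41 (SE 0.30), Psmb9 0.55 (SE 0.33) and Psmb10 0.54 (SE 0.15). Psmb10 had 34.6, 45.0, 41.8 and 42.0 CPM in AAV_sham and 55.1, 72.1, 48.2 and 61.7 CPM in AAV_TAC. Its groups did not overlap, as was so for 4 members upward (4.90% of genes) and 0 downward (5.79% of genes), and its adjusted p was 0.317 by edgeR. Psmd1 had 0.06 (SE 0.15).

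The vector against PBS gave 0 called members of 49 in sham hearts by edgeR (0.0127% of all genes) and 0 after TAC (0.0381%), and DESeq2 called 0 in both (2.45% and 0.235% of all genes). At an unadjusted p under 0.05 there were 3 and 0 members, against 20.7% and 3.19% of all genes. In sham hearts all vector libraries were above PBS for Psmd1 alone (5.53% of genes) and below for the chaperone gene Psmg3 alone (5.32%), and after TAC for 0 members above (4.19%) and 0 below (4.28%). Leaving out PBS_sham 1 gave 3 called members in sham hearts (6.12%, against 17.4% of all genes). There the core and cap median was 0.22, or −0.016 without PBS_sham 3 and 0.44 without PBS_sham 1, and Psmb8, Psmb9, Psmb10 and Psmd1 had −0.81, −0.55, −0.06 and 0.31 (SE 0.32, 0.36, 0.16 and 0.17), which without PBS_sham 3 were −0.063, 0.15, 0.00046 and 0.099. After TAC the median was −0.02, or 0.085 without PBS_TAC 3 and 0.021 without AAV_TAC 3, and the same 4 genes had 0.22, 0.51, 0.12 and −0.07 (SE 0.32, 0.36, 0.16 and 0.16). The interaction of vector and TAC called 0 members by edgeR (0.00635% of all genes) and 0 by DESeq2 (0.102%), with 2 at an unadjusted p under 0.05 (6.95% of all genes), and had a core and cap median of −0.23, or −0.0097 without PBS_sham 3, −0.44 without PBS_sham 1 and −0.13 without PBS_TAC 3. Its values were 1.03 for Psmb8 (SE 0.46, adjusted p = 0.688 by edgeR), 1.06 for Psmb9 (SE 0.51), 0.18 for Psmb10 (SE 0.23) and −0.39 for Psmd1 (SE 0.23), and without PBS_sham 3 they were 0.28 for Psmb8 and 0.35 for Psmb9.

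**Figure D5:**
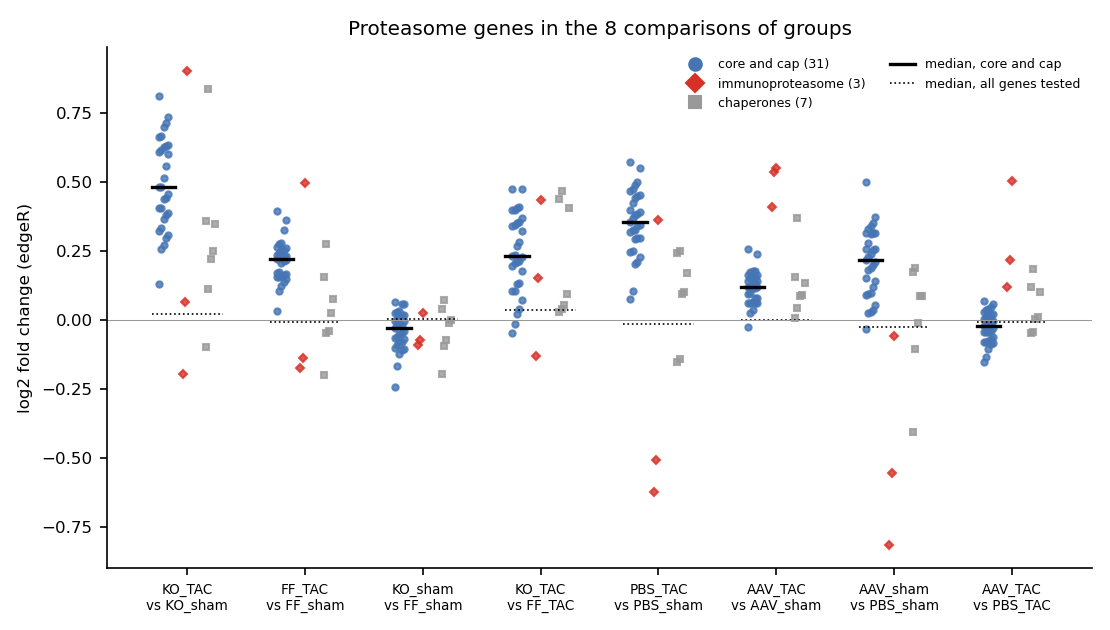
Log2 fold changes from edgeR in the 8 comparisons of groups for the core and cap genes, the immunoproteasome subunits and the chaperones, with 1 point per gene. The thick bar is the core and cap median, 0.48 in KO_TAC against KO_sham and −0.03 in KO_sham against FF_sham, and the dotted line is the median of all genes tested. Psmb8 and Psmb9 are the lowest points in both comparisons with PBS_sham.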

How the data were processed

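Per the submitters' processing notes, reads were processed with HISAT2 2.1.0, featureCounts and Subread 1.5.1 on GRCm38. The annotation release and strand setting are not given in the sources used here. The authors deposited whole-number counts per gene, and these were tested as raw counts. Per the labels' protocols, libraries were strand-specific, poly(A)-selected and sequenced paired-end. Symbols and exon lengths came from GENCODE M21 (55141 of 55487 genes matched, and the rest held 0.0192% of counts). Each cohort was fitted alone with edgeR 4.0.16 in R 4.3.3 (filterByExpr, TMM, quasi-likelihood test, 1 mean per group), testing 15596 and 15745 genes. DESeq2 1.42.0 was among the alternatives, which also changed the scaling, the filter, the libraries or the terms of the fit. The fits were tested on simulated data.

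No duplicate libraries were found among 42 pairs within groups. Titles of the KO_TAC samples name both surgeries, and their genotype and treatment labels were used. The members and lists were chosen with earlier results of these data known, and the union of core and cap genes and the 4 motifs after the fits were seen. Genes named with values are Psmb5 to Psmb10, Psmd1, Psme1, Psme2 and, where members were called, the 3 largest rises and falls with a mean of at least 5 CPM. Values are also given for Psmd11 and Psmd14, singled out after they were seen, and for genes at the ends of a range, Psmd2 among them. Outside KO_TAC against KO_sham, fold changes are given for Psmb8, Psmb9, Psmb10 and Psmd1. The samples of microRNA overexpression were not analysed here. Some genes of the lists are not reported here.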

Additional observations from a re-analysis of the deposited data

Results flagged for a closer look

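A library far from the others of its group was looked for among 11 named proteasome genes in 66 groups of 4 libraries, of which chance flags about 1 in 20 groups. It was found in 2. Psmd1 stood at 131.4 CPM in AAV_sham 3 and at 122.4 to 123.8 CPM in the other 3 AAV_sham libraries. Psmg4 stood at 5.40 CPM in the library labelled KO_sham 2 and at 5.22 to 5.25 CPM in the other 3 KO_sham libraries. The groups of 3 libraries, PBS_sham with PBS_sham 3 among them, were not looked at in this way.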

How the results depend on the processing

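The count of 17 members called in KO_TAC against KO_sham became 11 with no filter on low counts, 11 with a replicate block, 3 with only the compared groups in the fit and 0 with the haemoglobin term, and ran from 2 to 35 when each library was left out in turn. With the replicate block 22.4% of members and 24.9% of all genes were called. The count was 21 by DESeq2 (42.9%, against 30.9% of all genes) and 17 with RLE scaling (34.7% against 25.9%). With a mean of at least 5 CPM it was 15 of 46 members (32.6%), against 32.8% of all genes that passed that filter. KO_TAC against FF_TAC went from 0 members to 1 by DESeq2 and from 0 to 13 over the fits that left out 1 library, PBS_TAC against PBS_sham from 0 to 6 and AAV_sham against PBS_sham from 0 to 3. The other 6 comparisons stayed at 0 under the alternatives run. Same-numbered libraries of different groups correlated from −0.44 to 0.44 over 24 pairs in the floxed cohort. In the AAV9 cohort they correlated from −0.58 to 0.45 over 19 pairs. Differently numbered libraries were not set beside them, so whether replicate numbers pair the libraries was not settled.

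Of 1509 alternative values of the named genes over all comparisons, 81 changed sign, 45 lost and 7 gained a call. The 81 belonged to 39 fold changes, reached at most 0.274 on the log2 scale, and none was called (lowest adjusted p 0.535). Listed here are those of fold changes given in the text, a choice made after the sign changes had been counted. Genes of the other lists were not refitted. The cause of the changes was not tested. With the haemoglobin term, Psmb9 had 0.048 in FF_TAC against FF_sham, 0.14 in KO_TAC against KO_sham, 0.047 in KO_sham against FF_sham, 0.13 in KO_TAC against FF_TAC and 0.087 in the interaction, and Psmd1 −0.014 in KO_sham against FF_sham. Among haemoglobin-high libraries alone, Psmb8 had 0.013 and Psmb9 0.19 in FF_TAC against FF_sham. Among haemoglobin-low libraries alone, Psmb9 had 0.27 and Psmd1 −0.019 in KO_TAC against FF_TAC. With 1 library left out, Psmb9 ran from −0.28 to 0.051 in FF_TAC against FF_sham, −0.21 to 0.046 in KO_sham against FF_sham, −0.33 to 0.012 in KO_TAC against FF_TAC and −0.26 to 0.085 in the interaction with knockout. It ran from −0.79 to 0.20 in PBS_TAC against PBS_sham and −0.84 to 0.15 in AAV_sham against PBS_sham. Psmb8 ran from −0.056 to 0.15 in KO_TAC against KO_sham and −0.90 to 0.13 in PBS_TAC against PBS_sham. Psmb10 ran from −0.079 to 0.19 in KO_sham against FF_sham, −0.16 to 0.016 in AAV_sham against PBS_sham and −0.0068 to 0.26 in AAV_TAC against PBS_TAC, and Psmd1 from −0.021 to 0.29 in the interaction with knockout. Haemoglobin-low or haemoglobin-high libraries alone could be fitted only where both groups had at least 2, which left out KO_TAC against KO_sham and the interaction. Depth limits Psma8 (397 counts over 30 libraries) and Psmb11 (3 counts).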
